A study of Mus musculus with 14 samples.

Results

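The 10 genes described here encode cell surface receptors and co-receptors for BMPs and activins, and they were taken from the 23284 gene symbols counted in mouse forelimb buds by matching their symbols. The type I receptors were Bmpr1a, Bmpr1b and Acvr1, the type II receptors were Bmpr2, Acvr2a and Acvr2b, the pseudoreceptor was Bambi, and the co-receptors were Rgma, Rgmb and Neo1. RNA-seq compared forelimb buds with and without mesenchymal Smad4 at E10.0 (30 somites) and again when embryos had 35 somites (E10.5), to find the genes that depend on SMAD4. Wild-type embryos (n=3 at each stage) were Smad4+/+ and mutant embryos (Smad4Δ/Δc, n=4 at each stage) carried 1 constitutive null allele and 1 conditional allele of Smad4. Embryos of both genotypes carried the PrxCreT/+ transgene, and the strain was given as NMRI in the labels. The Prrx1-Cre driver acts in limb bud mesenchyme, so that ectoderm, endothelium and blood of the mutant embryos kept a functional Smad4 allele. Each replicate was the pool of both forelimb buds of 1 embryo. In such bulk samples, fewer cells of a type and less RNA per cell cannot be told apart.

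BMPs and activins signal through complexes of type I and type II receptors, which are transmembrane serine/threonine kinases. The ligand brings both types together, the constitutively active type II receptor phosphorylates the type I receptor, and the type I receptor phosphorylates receptor SMADs that enter the nucleus with SMAD4. BMPR1A, BMPR1B and ACVR1 (ALK2) phosphorylate SMAD1, SMAD5 and SMAD9. BMPR2 binds BMPs, whereas ACVR2A and ACVR2B bind activins and also BMPs and GDFs. BAMBI resembles a type I receptor but lacks the kinase domain and dampens signaling. The repulsive guidance molecules RGMA and RGMB (DRAGON) are GPI-anchored BMP co-receptors that also bind neogenin, the product of Neo1, which is a receptor for netrins as well. In limb buds, BMPR1A is required for outgrowth and patterning, and BMPR1B functions later in the digit cartilage.

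Between 34066930 and 61691258 reads per embryo were counted on genes, and 375 to 19429 of these fell on each of the 10 genes. Levels are given as CPM, which relates the reads of a gene to the total of its library, after TMM normalisation, which scales the libraries to each other. Smad4 was measured at 152 to 169 CPM in the wild-type embryos and at 32.9 to 45.9 CPM in the mutant embryos, a log2 fold change of -2.01 at E10.0 and -2.16 at E10.5. All 8 defining genes of limb bud mesenchyme were detected in every embryo. The mutant replicates 4 and 5 of both stages stood apart from the other 10 embryos: the ribosomal RNA Rn45s took 1.72% to 8.05% of their reads and 0.151% to 0.478% elsewhere. All 4 were mutant, so that whatever set them apart is mixed with genotype, and the genotype differences of the 10 genes are also given with only the replicates numbered 1 to 3. Of the mutants, this kept only replicates 1 and 3 at E10.0 and replicates 1 and 2 at E10.5, whereas all wild-type embryos stayed. Among the 10 genes, Bmpr1a and Acvr2a were lower, and Rgma higher, in replicates 4 and 5 than in the other mutant replicates at both stages.

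Per length of exon, Bmpr1a was the most abundant transcript of the 10 in all 4 groups. It reached 43.9 ± 1.54 CPM per kb (SD, n=3) in wild-type forelimb buds at E10.0, and Neo1 followed at 22.8 ± 2.34 CPM per kb. The ranges of both genes were separate from each other and from the gene next in order in every group. The other type I receptors were far lower in the same embryos, with Acvr1 at 5.44 ± 0.176 and Bmpr1b at 3.72 ± 0.286 CPM per kb. Bambi (10.2 ± 1.86), Bmpr2 (9.79 ± 1.25), Rgma (7.87 ± 0.947) and Acvr2a (7.15 ± 0.273 CPM per kb) followed each other with overlapping ranges. Rgmb was the lowest of the 10 at 1.93 ± 0.0994 CPM per kb, and its range lay under that of Bmpr1b. In mutant forelimb buds at E10.5, Rgmb reached 5.05 ± 0.463 CPM per kb, above Bmpr1b (4.10 ± 0.319) with no overlap and overlapping Acvr1 (5.43 ± 0.252). Acvr2b came after Neo1 in wild type at E10.0, at 13.99 ± 0.665 CPM per kb. Coding bases made up 91.7% of the annotated exons of Acvr2b and 88.8% of those of Bmpr2, against 15.5% to 60.6% for the other 8 genes. The annotation therefore holds little UTR for Acvr2b and Bmpr2, and their levels per kb may be too high relative to the others.

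**Figure D1:**
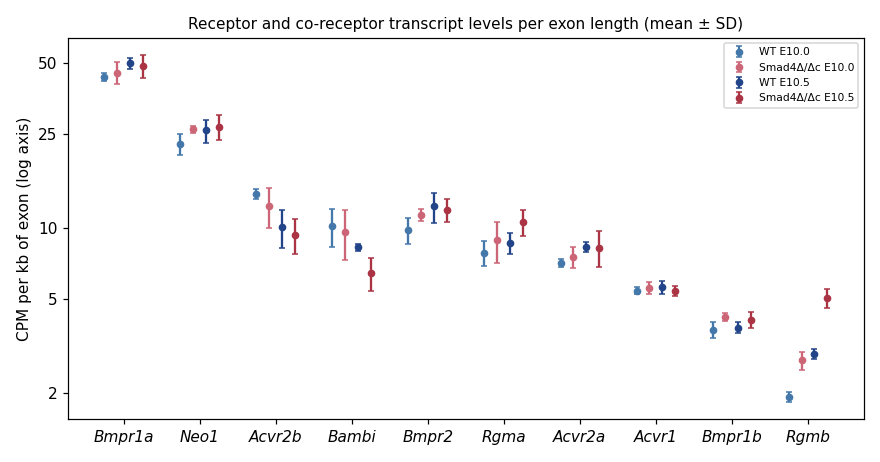
Mean transcript level of each gene in CPM per kb of exon (logarithmic y axis) for the 4 groups, with error bars of 1 SD over 3 wild-type or 4 mutant embryos. Bmpr1a and Neo1 lay above the others in every group, and Rgmb rose from 1.93 CPM per kb in wild type at E10.0 to 5.05 in mutants at E10.5.

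The comparison of genotypes asked which of the receptor genes change when SMAD4 is lost from the mesenchyme. Rgmb, which encodes a BMP co-receptor and neogenin ligand, was upregulated in mutant forelimb buds at both stages. At E10.0, the wild-type embryos had 8.53, 7.70 and 8.25 CPM of Rgmb, and the mutant embryos 12.9, 10.6, 11 and 12.0 CPM. At E10.5, the wild-type values were 11.8, 12.4 and 13.03 CPM, and the mutant values 24.0, 20.3, 21.4 and 19.5 CPM. Every mutant embryo was above every wild-type embryo of its stage, and the mutant replicates 4 and 5 lay among or close to the other mutant replicates. The range of the E10.0 mutants, 10.6 to 12.9 CPM, overlapped that of the wild-type embryos at E10.5. The log2 fold change was 0.51 ± 0.09 (SE) at E10.0 and 0.78 ± 0.09 at E10.5, or 1.43-fold and 1.72-fold, with adjusted P=0.00175 and 1.03e-08 (edgeR exact test, Benjamini-Hochberg adjustment over 12393 genes). With only the replicates numbered 1 to 3, it was 0.54 at E10.0 and 0.85 at E10.5 (edgeR adjusted P=0.0038 and 1.71e-07).

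Rgmb was the only 1 of the 10 genes called between genotypes at either stage, where a call is an adjusted P of at most 0.1 and a change of at least 1.2-fold. Over all 12393 genes tested, 6.61% were called at E10.0 and 3.73% at E10.5, so that the share of the 10 genes was near the background. With only the replicates numbered 1 to 3, 2 of the 10 were called at E10.0 (16.4% of all genes) and 1 at E10.5 (4.27% of all genes). The groups did not overlap in 3 of the 10 genes at E10.0 (17.8% of all genes), namely Rgmb, Bmpr1b and Bmpr2, all higher in mutants. At E10.5, they did not overlap in 2 of the 10 (13.0% of all genes), Rgmb being higher and Bambi lower in mutants.

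Several marker lists moved in the same embryos, and their part in the rise of Rgmb was not tested. At E10.0, both tested mesothelial genes of 3 listed were higher in mutants, and the list summed to 1.08-2.63 CPM in wild-type and 7.94-18.3 CPM in mutant embryos. At E10.5, both were lower in mutants (2.91-5.49 in wild type and 0.586-2.38 CPM in mutants), opposite to Rgmb, and Msln had no reads in at least 1 mutant embryo. Of 4 macrophage genes, 2 of 3 tested were higher in mutants at E10.0, where the list summed to 1.86-4.11 in wild type and 5.02-6.58 CPM in mutants. None of the 3 was called at E10.5 (edgeR exact test, 0 with an unadjusted P under 0.05), where the sums were 8.81-10.1 and 8.98-16.0 CPM. Of the 8 mesenchymal markers, 4 at E10.0 and 3 at E10.5 were lower in mutants, with sums of 1158-1322 CPM in wild type against 948-1094 CPM in mutants at E10.0 and 1349-1399 against 1076-1155 CPM at E10.5. The mesenchymal list includes Msx1, also listed among the BMP response genes below, and Prrx2, a SMAD4 target gene in the study. Prrx1 alone had a mean of 732 CPM in wild type at E10.0. No endothelial gene was called at either stage (edgeR exact test, 0 of 6, at an unadjusted P under 0.05 for 2 at E10.0 and 1 at E10.5). At E10.0, 1 of 10 ectodermal genes was lower and 1 of 4 tested muscle precursor genes was higher in mutants, and none was called at E10.5. Of 4 neural crest genes, 1 was tested, Erbb3, and it was called lower in mutants at E10.5 only. With only the replicates numbered 1 to 3, it was not called. Sox10 and Foxd3, too low to be tested, had higher means in mutants at E10.5 with overlapping ranges (0.799 and 1.07 CPM for Sox10, 0.121 and 0.188 CPM for Foxd3). No blood gene was called (edgeR exact test, 0 of 4 tested, at an unadjusted P under 0.05 for 0 at E10.0 and 1 at E10.5).

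**Figure D2:**
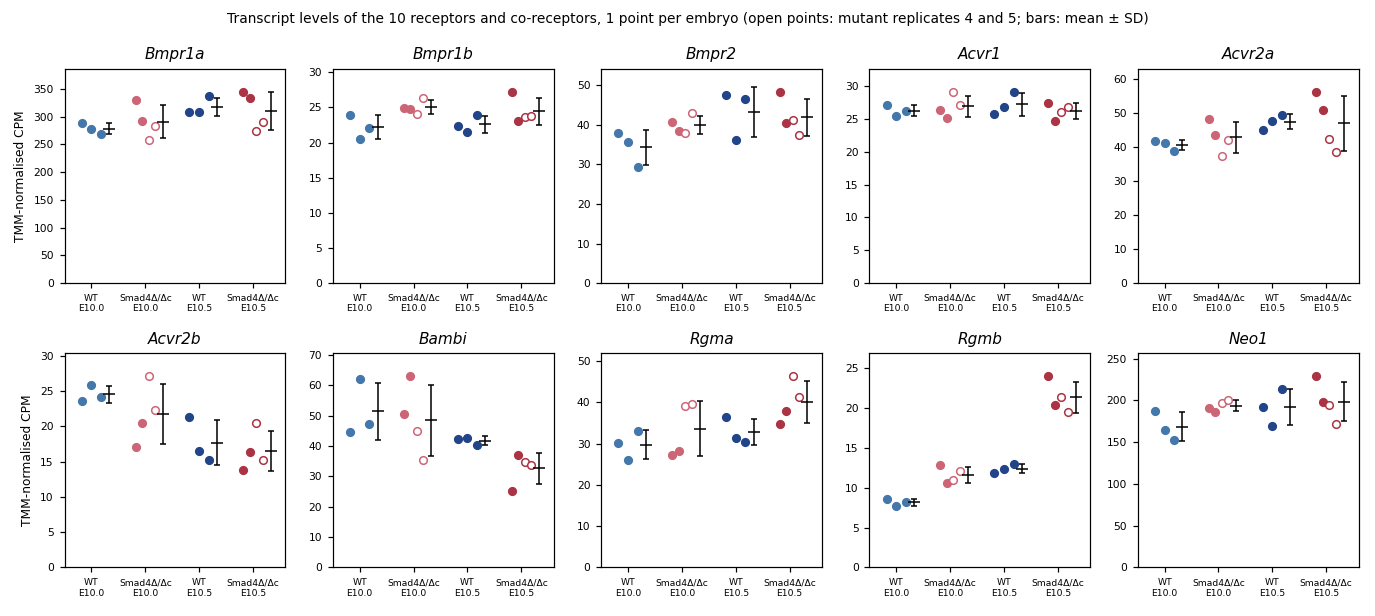
TMM-normalised CPM (y axis, from 0) of the 10 genes in each embryo of the 4 groups, with open points for mutant replicates 4 and 5 and bars for the mean ± SD. The mutant points of Rgmb lay above the wild-type points at both stages, at 10.6 to 12.9 against 7.70 to 8.53 CPM and at 19.5 to 24.0 against 11.8 to 13.03 CPM.

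Rgmb lies on chromosome 17 at 15941626-15963550 (NCBIM37, the mm9 build of the counts, minus strand). RefSeq holds 3 transcript starts for it, and promoter entries were found for 8 of the 10 genes, all except Rgma and Bambi. The stretches of 250 bases before a start are shown for Rgmb, the gene that differed between genotypes, at its start nearest the NCBIM37 gene start, and for Acvr2b, which fell between the stages. They are RefSeq sequences of GRCm38.p6, and each matched NCBIM37 once, at chr17:15963531-15963780 (minus strand) for Rgmb and chr9:119311046-119311295 (plus strand) for Acvr2b. Capitals mark SMAD-type motifs on either strand: CAGAC, the core of the SMAD binding element, and GGCGCC and GGAGCC, GC-rich elements bound by BMP-responsive SMADs.
Rgmb: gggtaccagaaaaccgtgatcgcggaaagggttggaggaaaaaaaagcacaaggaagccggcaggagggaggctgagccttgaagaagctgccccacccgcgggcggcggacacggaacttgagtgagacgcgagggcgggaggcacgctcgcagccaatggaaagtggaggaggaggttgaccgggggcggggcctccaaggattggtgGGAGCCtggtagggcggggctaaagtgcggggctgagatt
Acvr2b: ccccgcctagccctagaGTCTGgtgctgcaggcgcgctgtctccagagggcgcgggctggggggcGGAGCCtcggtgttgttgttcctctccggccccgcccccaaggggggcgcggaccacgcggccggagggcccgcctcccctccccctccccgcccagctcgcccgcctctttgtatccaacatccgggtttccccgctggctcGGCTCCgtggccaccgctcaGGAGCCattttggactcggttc
The Rgmb stretch held GGAGCC 1 time, 40 bases before the start. The Acvr2b stretch held CAGAC 1 time and GGAGCC 3 times. Another Rgmb start, further upstream, had 1 CAGAC and 1 GGCGCC, the latter 21 bases before it, and the stretch before the remaining Rgmb start held none of the 3 motifs. Among 32851 such stretches of all promoters in the table, 42.2% held CAGAC, 9.6% GGCGCC and 26.0% GGAGCC, and a match is only a description of these letters.

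None of the 3 type I receptors was called between genotypes. Bmpr1a was measured at 269 to 289 in wild type and 257 to 329 CPM in mutants at E10.0, and at 308 to 337 and 274 to 345 CPM at E10.5. Its groups overlapped at both stages, with log2 fold changes of 0.06 (95% interval from limma -0.13 to 0.25) and -0.03 (-0.23 to 0.15). Acvr1 was the most even of the 10 genes, between 24.7 and 29.2 CPM over all 14 embryos, a span of 1.18-fold. The Acvr1 intervals of the genotype difference were -0.12 to 0.18 at E10.0 and -0.20 to 0.10 at E10.5. Bmpr1b had 23.9, 20.5 and 22.1 CPM in wild type and 24.9, 24.8, 24.0 and 26.4 CPM in mutants at E10.0. Although these groups did not overlap, the log2 fold change of 0.17 was not called (edgeR exact test, Benjamini-Hochberg adjusted P=0.362), and at E10.5 it was 0.12 with overlapping groups. Between the replicates numbered 1 to 3 alone, the log2 fold changes at E10.0 and E10.5 were 0.18 and 0.10 for Bmpr1a, -0.01 and -0.05 for Acvr1, and 0.18 and 0.17 for Bmpr1b, with no call. The small differences of Bmpr1a at E10.5 and Acvr1 at E10.0 thereby changed direction.

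The type II receptors were not called between genotypes either. Bmpr2 had 37.9, 35.6 and 29.5 CPM in wild type and 40.7, 38.5, 38.0 and 43.0 CPM in mutants at E10.0. The lowest mutant embryo was just above the highest wild-type embryo, and the log2 fold change of 0.22 gave an edgeR adjusted P of 0.309 (Benjamini-Hochberg). At E10.5, the Bmpr2 groups overlapped with a log2 fold change of -0.05 (limma 95% interval -0.29 to 0.20). Acvr2a overlapped at both stages, with log2 fold changes of 0.08 (-0.17 to 0.32) and -0.01 (-0.27 to 0.21). Acvr2a exons share 446 bases with Orc4, and strand was not used in counting. Ambiguous reads were kept apart from the gene counts, so that reads of the shared bases may be missing from Acvr2a. Acvr2b had 23.6, 25.8 and 24.2 CPM in wild type and 17.0, 20.4, 27.1 and 22.3 CPM in mutants at E10.0, the last 2 values being those of replicates 4 and 5. The log2 fold change of Acvr2b was -0.18 (limma 95% interval -0.53 to 0.14, edgeR adjusted P=0.602). With only the replicates numbered 1 to 3, Acvr2b was called lower in mutants at E10.0, at -0.37 (edgeR adjusted P=0.0672), whereas it was -0.22 and not called at E10.5. In the same replicates, the log2 fold changes of Bmpr2 were 0.22 and 0.05 and those of Acvr2a 0.20 and 0.19, not called, and both genes changed direction at E10.5.

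The pseudoreceptor gene Bambi, itself a gene that responds to BMP in many tissues, was not called between genotypes at either stage, although its groups did not overlap at E10.5. At E10.0, its wild-type values of 44.8, 62.1 and 47.4 CPM lay within the mutant values of 50.7, 63.1, 44.8 and 35.3 CPM. At E10.5, the wild-type embryos had 42.4, 42.8 and 40.3 CPM and the mutant embryos 25.1, 37.0, 34.7 and 33.7 CPM, without overlap. The log2 fold change at E10.5 was -0.36 (limma 95% interval -0.74 to -0.01), with an edgeR exact test P of 0.0255 before and 0.356 after Benjamini-Hochberg adjustment. Fitted with only the 2 groups of that stage, the edgeR adjusted P was 0.0908 and Bambi was called, whereas the quasi-likelihood test over all 14 embryos gave 0.444. In the replicates numbered 1 to 3 alone, the log2 fold change of Bambi was 0.16 at E10.0, the opposite direction, and -0.42 at E10.5, neither called (edgeR adjusted P=0.492 and 0.143).

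The other co-receptor genes, Rgma and Neo1, were not called. Rgma had 30.1, 26.0 and 33.1 CPM in wild type and 27.3, 28.3, 39.1 and 39.7 CPM in mutants at E10.0. The replicates 4 and 5 were the 2 highest mutant values at both stages, at 39.1 and 39.7 CPM at E10.0 and at 46.4 and 41.3 CPM at E10.5. The log2 fold change of Rgma was 0.17 at E10.0 and 0.29 at E10.5 (edgeR exact test, Benjamini-Hochberg adjusted P=0.567 and 0.46). With only the replicates numbered 1 to 3, it was -0.08 at E10.0 and 0.15 at E10.5, so that the direction at E10.0 rested on replicates 4 and 5. Exons of Rgma share 220 bases with A730056A06Rik. Neo1 was at 153 to 187 in wild type and 187 to 201 CPM in mutants at E10.0, and its log2 fold changes were 0.20 (limma 95% interval 0.00 to 0.41) and 0.05 (-0.16 to 0.25), or 0.18 and 0.17 with only the replicates numbered 1 to 3.

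**Figure D3:**
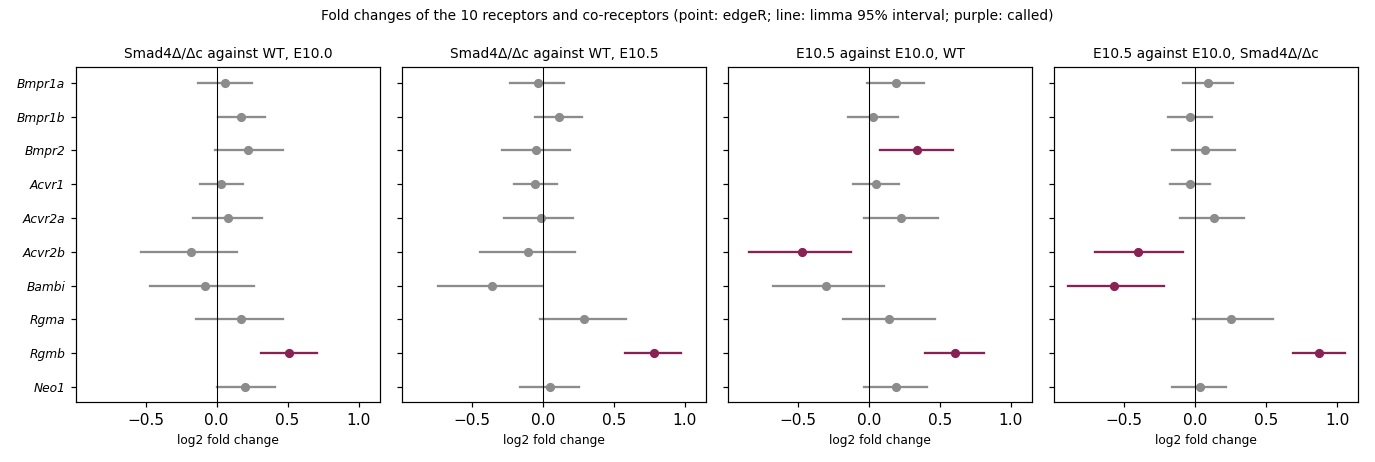
Log2 fold changes (x axis, points from edgeR) of the 10 genes in the 4 pairwise comparisons, with lines for the 95% interval from limma and purple for called genes. Rgmb was called in all 4 comparisons, at 0.51, 0.78, 0.61 and 0.88, and the other 9 genes had intervals within -0.74 and 0.59 in the genotype comparisons.

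The comparison of stages asked how the receptor genes change as limb bud outgrowth proceeds, and it used the same embryos as the comparison of genotypes. In wild-type forelimb buds, 3 of the 10 genes were called between E10.0 and E10.5, against 10.1% of all genes tested. Rgmb rose by a log2 fold change of 0.61 ± 0.10 (SE; edgeR exact test, Benjamini-Hochberg adjusted P=0.000129), or 1.52-fold, from a mean of 8.16 ± 0.420 to 12.4 ± 0.599 CPM (SD, n=3). Acvr2b fell by 0.47 on the log2 scale, from 23.6, 25.8 and 24.2 CPM at E10.0 to 21.3, 16.5 and 15.2 CPM at E10.5 (edgeR exact test, Benjamini-Hochberg adjusted P=0.0594). Bmpr2 rose by 0.34 on the log2 scale, to 47.5, 36.1 and 46.5 CPM at E10.5, of which the replicate with 36.1 CPM lay within the E10.0 range (edgeR exact test, Benjamini-Hochberg adjusted P=0.0782). Bambi had 44.8, 62.1 and 47.4 CPM at E10.0 and 42.4, 42.8 and 40.3 CPM at E10.5, without overlap, and its log2 fold change of -0.30 was not called (edgeR exact test, Benjamini-Hochberg adjusted P=0.309). Fitted with only the 2 wild-type groups, Bambi was called (edgeR adjusted P=0.0586). All 3 tested macrophage genes were higher at E10.5 in wild type, with sums of 1.86-4.11 CPM at E10.0 and 8.81-10.1 CPM at E10.5. Of 2 tested mesothelial genes, 1 was higher, with sums of 1.08-2.63 and 2.91-5.49 CPM. Lower were 2 of 8 mesenchymal and 1 of 10 ectodermal genes. Of 4 tested muscle precursor genes, 1 was higher and 1 lower. The part of these lists in the changes of Rgmb, Acvr2b and Bmpr2 was not tested.

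The calls of Acvr2b and Bmpr2 in wild type were not stable. By edgeR's quasi-likelihood test, both missed the threshold (Benjamini-Hochberg adjusted P=0.113 for each), and Rgmb alone remained (0.00301). The call of Acvr2b was lost without the wild-type replicate 2 or 3 of E10.0 or the wild-type replicate 2 or 3 of E10.5, with edgeR adjusted P between 0.146 and 0.418. The call of Bmpr2 was lost without the wild-type replicate 2 or 3 of E10.0 or the wild-type replicate 1 or 3 of E10.5, with edgeR adjusted P between 0.203 and 0.386. Groups did not overlap in 5 of the 10 genes (37.0% of all genes), with Bmpr1a, Acvr2a and Rgmb higher and Acvr2b and Bambi lower at E10.5.

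In mutant forelimb buds, 3 of the 10 genes were called between the stages, against 19.2% of all genes. Rgmb rose by a log2 fold change of 0.88 ± 0.09 (edgeR exact test, Benjamini-Hochberg adjusted P=8.22e-14), or 1.83-fold, from 11.6 ± 1.01 to 21.3 ± 1.96 CPM (SD, n=4). It was the only 1 of the 10 whose mutant groups did not overlap between stages (20.0% of all genes). Bambi fell by 0.57 on the log2 scale, from 35.3-63.1 to 25.1-37.0 CPM (edgeR exact test, Benjamini-Hochberg adjusted P=0.00164), and by 0.87 with only the replicates numbered 1 to 3. Acvr2b fell by 0.40 on the log2 scale, from 17.0-27.1 to 13.8-20.4 CPM (Benjamini-Hochberg adjusted P=0.0349 by edgeR's exact and 0.0709 by its quasi-likelihood test). With only the replicates numbered 1 to 3, the change of Acvr2b was -0.31 and not called (edgeR adjusted P=0.203). It was also not called without the mutant replicate 4 of E10.0 or the mutant replicate 1 or 5 of E10.5 (edgeR adjusted P between 0.107 and 0.189). Rgma was not called (0.25, edgeR adjusted P=0.174), but it was called with the replicate number as a block (0.28, edgeR quasi-likelihood adjusted P=0.0521, against 0.201 by that test without the block) and with only the replicates numbered 1 to 3 (0.39, edgeR adjusted P=0.0247). Rgma was also called without the mutant replicate 4 or 5 of E10.0 or the mutant replicate 1 of E10.5 (edgeR adjusted P between 0.0634 and 0.0896). Ectodermal markers moved with stage too, as 6 of 10 were called in mutants, 4 of them lower, with sums of 198-284 CPM at E10.0 and 173-244 CPM at E10.5, and their part in the fall of Bambi was not tested. Both tested mesothelial genes were lower at E10.5 in mutants, with sums of 7.94-18.3 CPM at E10.0 and 0.586-2.38 CPM at E10.5. All 3 tested macrophage genes were higher, with sums of 5.02-6.58 CPM at E10.0 and 8.98-16.0 CPM at E10.5. Also called were 4 of 8 mesenchymal genes (3 lower), 2 of 4 tested muscle precursor genes (1 lower) and 1 of 6 endothelial genes (lower). The part of these lists in the changes of Rgmb, Bambi and Acvr2b between mutant stages was not tested either.

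A term for the interaction between stage and genotype tested whether the genotype difference itself changed with stage (edgeR quasi-likelihood test), and it called none of the 10 genes, against 0.186% of all genes. An unadjusted P under 0.05 was reached by 0 of the 10, and DESeq2 called none of them either. The interaction of Rgmb was 0.27 on the log2 scale (limma 95% interval -0.01 to 0.55) (edgeR quasi-likelihood test, Benjamini-Hochberg adjusted P=0.88). The larger fold change of Rgmb at E10.5 was thus not shown to differ from that at E10.0. For Bambi the interaction was -0.28 (limma 95% interval -0.79 to 0.25), and for Bmpr2 it was -0.27 (-0.61 to 0.07).

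Ratios of reads within a library need no scaling between libraries. Per 100 reads of Neo1, the receptor of RGMB, there were 4.56 to 5.39 reads of Rgmb in wild type and 5.59 to 6.74 in mutants at E10.0, and 6.11 to 7.28 and 10.2 to 11.4 at E10.5. The genotypes did not overlap at either stage in this ratio. Of the reads of Rgma and Rgmb together, Rgmb took 19.9% to 22.9% in wild type and 22.0% to 32.0% in mutants at E10.0, and these ranges overlapped. The lowest mutant shares at both stages were those of replicates 4 and 5, in which Rgma was high. At E10.5, the shares were 24.5% to 30.0% in wild type and 31.6% to 40.9% in mutants, without overlap. Acvr2b reads per 100 Acvr2a reads ranged from 56.3 to 62.8 in wild type at E10.0 and from 30.7 to 47.3 at E10.5, and in mutants from 35.2 to 72.6 and from 24.5 to 48.2. The highest mutant ratio at both stages was that of replicate 4.

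**Figure D4:**
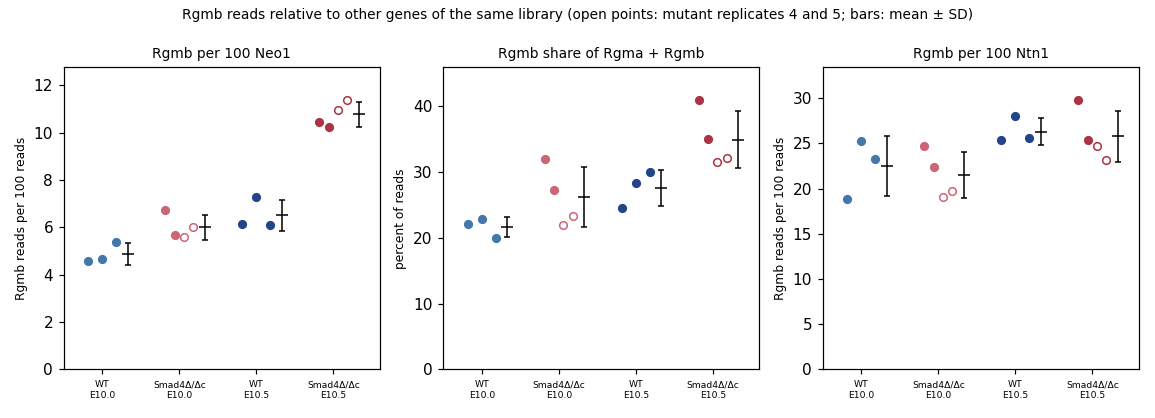
Rgmb reads per 100 Neo1 reads (left), as percent of Rgma and Rgmb reads together (middle) and per 100 Ntn1 reads (right) in each embryo, with open points for mutant replicates 4 and 5 and bars for the mean ± SD. Rgmb per Neo1 was above the wild type in all mutants of each stage, whereas Rgmb per Ntn1 overlapped between genotypes.

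Over the 14 embryos, the genes whose log2(CPM + 1) was most like that of Rgmb were Ica1 (Pearson r=0.985), Lum (0.981), which encodes the matrix proteoglycan lumican, and Ism1 (0.979), which encodes a secreted isthmin. These are descriptions over 14 libraries that share 4 groups, and they were ranked among 12393 genes. The 3 genes were picked by likeness to Rgmb, which itself differed between genotypes and stages. Their own genotype differences were thus partly set by that choice, and their P-values are no independent test. Ica1 was not called at E10.0 (0.22, edgeR exact test, Benjamini-Hochberg adjusted P=0.288) and was higher in mutants by a log2 fold change of 0.38 at E10.5 (adjusted P=0.0324). Lum was higher in mutants by log2 fold changes of 1.27 (E10.0) and 1.48 (E10.5), and Ism1 by 0.53 and 0.96 (edgeR exact test, Benjamini-Hochberg adjusted P between 1.37e-07 and 0.0367). Among the 10 genes themselves, Bmpr1a and Acvr2a were the most alike (r=0.934, n=14), followed by Bmpr2 and Neo1 (0.893), and the lowest r was that of Bmpr1a and Acvr2b (-0.835). Bmpr1a and Acvr2a were also both lower in the mutant replicates 4 and 5, and the part of these libraries in the likeness was not tested.

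The partners of Rgmb and Neo1 were examined as a list of 13 netrin, UNC5 and RGM pathway genes, of which 11 were tested. With all embryos, only Ntn1 and Unc5b were called between genotypes at either stage (edgeR exact test). With only the replicates numbered 1 to 3, 4 of the 11 were called at E10.0 (1 higher and 3 lower, against 16.4% of all genes). At E10.5, 2 were called in these replicates (4.27% of all genes). Ntn1, which encodes the neogenin ligand netrin 1, rose in mutants by a log2 fold change of 0.56 at E10.0 and 0.81 at E10.5 (edgeR exact test, Benjamini-Hochberg adjusted P=2.62e-04 and 3.16e-09). Its level was 30.5-45.1 in wild type and 47.4-61.0 CPM in mutants at E10.0, and 44.2-51.0 and 80.1-86.6 CPM at E10.5. Rgmb reads per 100 Ntn1 reads overlapped between genotypes at both stages, at 18.9-25.3 and 19.1-24.7 at E10.0 and at 25.4-28.0 and 23.2-29.8 at E10.5. The Pearson r of Ntn1 and Rgmb over the 14 embryos was 0.929, the 60th highest of all genes. Unc5b, a netrin receptor gene, fell by 0.46 and 0.31 on the log2 scale (edgeR exact test, Benjamini-Hochberg adjusted P=2.65e-05 and 0.0185).

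The ligand list held 26 BMP, GDF and activin genes, of which 12 were tested, and 4 were called at E10.0 (3 higher, 1 lower) and 5 at E10.5 (3 higher, 2 lower). Bmp4, which encodes a BMP of the limb bud mesenchyme and ridge, rose by a log2 fold change of 0.38 and 0.34, from 50.5-56.2 to 65.8-78.7 CPM at E10.0 and from 53.2-57.2 to 61.0-81.6 CPM at E10.5. With only the replicates numbered 1 to 3, Bmp4 was called at E10.0 alone (0.34, edgeR adjusted P=0.00376, and 0.20 with 0.242 at E10.5). Bmp2 and Bmp3 rose at E10.5 by 0.91 and 1.58 on the log2 scale, and Gdf10 fell from 2.31-2.82 to 0.553-1.15 CPM. Bmp3 was also called higher at E10.0 (1.01, edgeR exact test, Benjamini-Hochberg adjusted P=0.0529), but not with only the replicates numbered 1 to 3 (0.28, edgeR adjusted P=0.581). Its level in wild type was low, at 0.756-1.30 CPM at E10.0 and 0.936-1.75 CPM at E10.5. At E10.0, Mstn rose by 1.23 and Gdf5 fell by 1.29, both at levels of about 2 CPM or less. Of the 19 extracellular antagonists and modulators, 13 were tested, and 4 were called at E10.0 and 5 at E10.5. Grem1, the main BMP antagonist of the limb bud, fell by 1.22 and 1.09 on the log2 scale, whereas Smoc1 rose by 0.91 and 0.93 and Smoc2 by 1.67 and 1.49.

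Of the 11 other receptors of the TGF-beta superfamily, 6 were tested. None was called at E10.0 (edgeR exact test, 2 with an unadjusted P under 0.05), and Tgfbr2 (0.43) and Tgfbr3 (0.47), receptors of TGF-beta itself, were higher in mutants at E10.5 (edgeR exact test, Benjamini-Hochberg adjusted P=4.60e-04 and 0.0346). Downstream, 4 of 17 tested SMADs and intracellular regulators were lower at each stage and none was higher, namely Smad4 itself, Smad6, Smad9 (-1.18 and -2.24) and the inhibitory Smad7 (-0.51 and -0.46). Of 12 BMP response genes, 8 were called lower at E10.0 (3.28% of all genes) and 11 at E10.5 (1.54% of all genes), and Smad7 and Smad6 are in both lists. The study had reported Id1, Id2, Id3, Msx2, Smad6, Smad7 and Tbx2 of the response genes as reduced in these mutants. The counts of the response genes are therefore no test separate from that report. The transcription factor genes Id1, Id3 and Msx2 fell by 1.23, 1.24 and 1.06 on the log2 scale at E10.0 and by 1.33, 1.38 and 1.66 at E10.5. The median log2 fold change of the response genes was -0.63 at E10.0 and -0.60 at E10.5, against 0.13 and -0.02 for the 10 receptor and co-receptor genes and -0.02 and -0.01 for all genes tested.

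**Figure D5:**
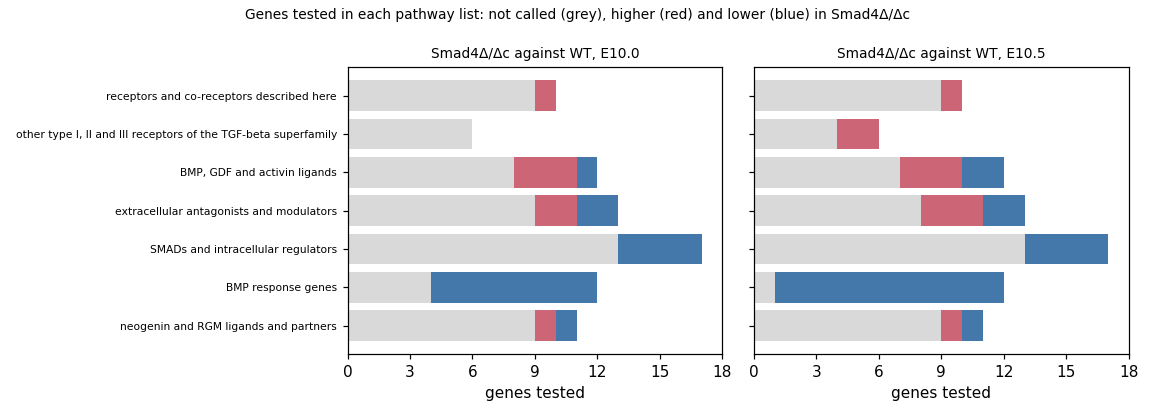
Number of genes tested (x axis) in each pathway list at E10.0 (left) and E10.5 (right), split into genes not called (grey), higher (red) and lower (blue) in mutants. Of the BMP response genes, 8 and 11 of 12 were lower, and of the 10 receptors and co-receptors 1 was higher at each stage. The BMP response list holds genes that the study had reported as reduced.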

How the data were processed

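RNA-seq was performed by the authors on polyA RNA of 14 forelimb bud pairs as unstranded single reads. Per the labels and the study's methods, reads were aligned to mm9 with refGene models by TopHat2 2.0.13, and the deposited values are raw counts of uniquely mapped reads per gene symbol from HTSeq (version not given in the sources used here). The 10 genes, the pathway and marker lists and the rule for naming genes were chosen with earlier results of these data known. Samples were grouped by the genotype and stage in the labels.

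Symbols of the sex chromosomes and the mitochondrial genome (1041) were dropped. Genes reaching 1 CPM in 3 or more embryos were tested with the settings of the study: TMM normalisation, common and tagwise dispersions over all 14 embryos with a prior of 10 degrees of freedom, and the exact test of edgeR 4.0.16 (R 4.3.3), calling genes changed by 1.2-fold or more at a Benjamini-Hochberg FDR up to 0.1. All 10 genes passed the filter. Over all genes, the genotype calls, 819 at E10.0 and 462 at E10.5, outnumbered the differentially expressed genes that the study reported at each stage. The reason for this difference was not tested. The interaction was tested with edgeR's quasi-likelihood test. Standard errors and 95% intervals came from limma 3.58.1 on log2 CPM with a prior count of 0.5, and likeness from log2(CPM + 1). In tests on simulated data, most changed genes were recovered with the right sign, but the exact test made more false calls than its nominal rate and than the quasi-likelihood test. Exon lengths were unions of GENCODE M1 exons (NCBIM37), which may differ from the refGene models counted. Given with values from each pathway list were at most the 3 called genes with the smallest P in each genotype comparison. Other genes of these lists, such as Smad6, were mentioned by name only. For each gene called between genotypes, the 3 genes most like it were also named. P-values of the main tests weigh a difference between groups against the spread between embryos, which was estimated over all 14 embryos.

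Replicate numbers are shared between groups. Deviations from the group means correlated within the 3 pairs of mutants with equal numbers at both stages (r=0.572, 0.611 and 0.269), above the limit of 0.1 set for treating numbers as pairs. Mutants with unequal numbers had r between -0.587 and 0.383, some above the 0.269 of the pair numbered 5, and numbers 4 and 5 also mark the libraries that stood apart, so that the pairing is uncertain. With the replicate block in a quasi-likelihood fit, 4 of the 10 genes were called between the mutant stages, against 3 by the quasi-likelihood test without it and 3 by the exact test. Alternatives were the quasi-likelihood test, DESeq2 1.42.0, RLE normalisation, no filter, all chromosomes kept, only the groups compared in the fit, the replicate block, only replicates 1 to 3, each embryo left out, and the longest transcript as gene length. Figures were drawn with matplotlib 3.10.9 under Python 3.11.15.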

Additional observations from a re-analysis of the deposited data

Results flagged for a closer look

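In the mutant embryos at E10.5, Bmpr1b was at 27.3 CPM in replicate 1 and at 23.1 to 23.7 CPM in the other 3, and Bmp2 was at 5.74 CPM in replicate 1 and at 5.46 to 5.50 CPM in the others. Among the mutant embryos at E10.0, Smad4 was at 45.9 CPM in replicate 3 and at 36.9 to 38.4 CPM in the others. These 3 values lay far from the rest of their group of 4 by Dixon's criterion, which chance meets in about 1 of 20 groups, and 58 groups were examined.

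The mesothelial markers Wt1 and Upk3b, singled out after their values were seen, had genotype differences that changed with stage, by -3.75 and -5.05 on the log2 scale (edgeR quasi-likelihood test of the interaction, Benjamini-Hochberg adjusted P=0.019 and 0.0366). With only the replicates numbered 1 to 3, this interaction was called for 1 of the 2.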

How the results depend on the processing

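Rgmb was called, with the same direction, in all 88 of its pairwise tests under the alternatives, with log2 fold changes of 0.47 to 0.55 and 0.73 to 0.85 between genotypes at E10.0 and E10.5 and 0.56 to 0.64 and 0.82 to 0.93 between stages in wild type and mutants. Of 1080 log2 fold changes of the 10 genes under alternatives, 14 lost and 8 gained a call, and no called one changed sign. The number of the 10 genes called moved from 1 to 2 between genotypes at E10.0 with only replicates 1 to 3 and at E10.5 with only the 2 groups in the fit, and from 3 to 1 between wild-type stages with the quasi-likelihood test. With only the 2 groups in the fit, 4 were called there, Bambi being added (-0.29, edgeR adjusted P=0.0586), and leaving out 1 embryo gave 1 to 3. Over all genes, the genotype calls at E10.0 moved from 819 to 2018 with only replicates 1 to 3. The replicate block was fitted with the quasi-likelihood test and gave 1961 genotype calls at E10.0 and 280 at E10.5, against 601 and 341 by that test without the block and 819 and 462 by the exact test. In these comparisons, and between wild-type stages, samples share only a replicate number (r between -0.283 and 0.174 within numbers), and the blocked fit differed from the exact test in no call of the 10 genes other than that of Rgma between mutant stages. Compared with the quasi-likelihood test without the block, it also called Acvr2b and Bmpr2 between wild-type stages (edgeR adjusted P=0.039 and 0.0711). The wild-type stage calls moved from 1256 to 1932 with only the 2 groups, and the interaction calls from 23 to 87 with DESeq2, 39 without filter and 6 with only replicates 1 to 3. Leaving out 1 embryo gave 254 to 1062 and 286 to 516 genotype calls at E10.0 and E10.5, 484 to 1515 wild-type stage calls and 7 to 34 interaction calls. With RLE normalisation, the genotype calls at E10.0 were 512 higher and 336 lower, against 413 and 406. The causes were not tested. With the longest transcript as length, 6 of 40 ranks of the levels moved. With 3 or 4 embryos a group, and 375 to 1352 reads on Rgmb, differences between genotypes smaller than the intervals given could not be shown. The mutant groups were smaller still with only the replicates numbered 1 to 3.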
